A study of Mus musculus with 31 samples.

Results

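A set of 10 genes that restrain transcription factors or kinases was followed in 2 tables of Ba/F3 cells, an IL-3-dependent mouse lymphoid cell line. They are the inhibitor-of-differentiation genes Id1, Id2 and Id3, the MAP kinase phosphatase genes Dusp1, Dusp2, Dusp4, Dusp5 and Dusp6, and the Sprouty genes Spry1 and Spry2. The 10 symbols were matched among 41255 gene rows in each table, and all 10 were present in both. The list was chosen from measured values of these libraries, among them the contrast of the genotypes, so the genotype contrast of the members is given below as a description without p-values.

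Groups were 2 genotypes measured in 2 RNA fractions. R98S cells carried a retroviral cDNA of human RPL10, a protein of the large ribosomal subunit, with the arginine-to-serine change R98S found in T-cell leukemia, and WT cells carried the unchanged human cDNA. In both genotypes an shRNA lowered endogenous mouse Rpl10, and each genotype was represented by 3 clones grown from single cells, numbered 11, 13 and 35 for R98S and 28, 29 and 36 for WT. Total poly(A) mRNA was sequenced in 9 R98S and 8 WT libraries, and RNA from pooled gradient fractions with at least 2 ribosomes (polysomal RNA) in 8 R98S and 6 WT libraries. The labels give each library a replicate number from 1 to 3 within its clone, and 14 combinations of clone and number, called cultures here, had both libraries.

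Reads per library ranged from 9338671 to 22059792 in total mRNA and from 8831180 to 20754046 in polysomal RNA. Number 1 of WT clone 36 was not analysed in total mRNA, since by the study's account its principal components resembled those of mutant cells, and differences between the genotypes are conditional on that choice. Rpl10 itself does not check the labels, since reads of the human cDNA can be counted with it; it ranged from 901 to 2984 normalized counts in R98S and from 620 to 5715 in WT total mRNA. Each of the 8 markers of haematopoietic cells with the IL-3 receptor reached a mean of 10 in every group. Of 8 B-lymphoid markers only Cd79a and Cd79b did so, and the 6 others, Pax5 among them, stayed at or below 5.87 normalized counts in every library. The summed level of the IL-3 receptor list was 127888 to 242623 in R98S and 73663 to 118966 in WT total mRNA. In total mRNA it did not overlap between the genotypes, in polysomal RNA it did (55878 to 148158 and 30719 to 82798), and its part in the results below was not tested. The summed T-cell list was 93.5 to 386 in R98S and 43.1 to 77.9 in WT polysomal RNA, without overlap, and overlapped in total mRNA. Of 8 myeloid markers 0 reached a mean of 10 in R98S and 3 in WT polysomal RNA, against 1 and 3 in total mRNA. The part of either list was not tested. In bulk RNA, fewer cells that express a gene and less RNA of it per cell cannot be told apart.

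Id proteins have a helix-loop-helix but no basic DNA-binding region, and they hold E proteins and other basic helix-loop-helix (bHLH) factors away from DNA. They are classical targets of BMP and TGF-beta signalling and are used in blood cells to delay differentiation. Dusp and Sprouty proteins form a feedback loop on MAP kinases: their genes are switched on by ERK activity, Dusp enzymes remove phosphate from ERK, JNK or p38, and Sprouty proteins act upstream, between growth factor receptors and the Ras-Raf step. In Ba/F3 cells IL-3 feeds both the JAK-STAT and the Ras-ERK routes.

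The 3 Id genes were compared over the 20 codons in which their proteins are most alike, in the helix-loop-helix region, to show how far reads can tell them apart. The stretches were read from GENCODE M21 transcripts of GRCm38 and run from coding base 172 to 231 in Id1, 103 to 162 in Id2 and 118 to 177 in Id3. Capitals mark the 38 of 60 bases shared by all 3 genes.
Id1: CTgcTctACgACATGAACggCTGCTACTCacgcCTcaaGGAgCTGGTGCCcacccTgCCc
Id2: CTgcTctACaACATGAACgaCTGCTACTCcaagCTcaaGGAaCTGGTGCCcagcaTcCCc
Id3: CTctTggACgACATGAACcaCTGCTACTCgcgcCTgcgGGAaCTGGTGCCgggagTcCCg
Even here Id1 and Id2 were identical at 50 of 60 bases and Id3 matched either of them at 42. No window of 50 bases of the Id1 or Id3 transcript occurred in a transcript of another gene, and 0.42% of the windows of Id2 occurred in Gm6175.

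The Dusp genes share the phosphatase signature with its catalytic cysteine and the arginine that binds the phosphate. It was found once in each of the 5 coding sequences and is shown because it marks the 5 genes as 1 enzyme family. Capitals mark the cysteine and the arginine codon.
Dusp1: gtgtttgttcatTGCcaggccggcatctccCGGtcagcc
Dusp2: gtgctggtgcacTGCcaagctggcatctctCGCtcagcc
Dusp4: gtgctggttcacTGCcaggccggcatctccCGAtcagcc
Dusp5: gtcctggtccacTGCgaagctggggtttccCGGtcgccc
Dusp6: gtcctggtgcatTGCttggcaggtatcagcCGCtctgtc
Over these 39 bases Dusp1 and Dusp4 were identical at 35 and Dusp5 and Dusp6 at 24. No window of 50 bases of a Dusp or Spry transcript occurred in another gene. Exons of Dusp1, Dusp5 and Spry1 overlap exons of a gene on the opposite strand, by 11, 547 and 710 bases. The use of strand in the authors' counting is not given in the sources used here, and reads of such partners cannot be told apart without it.

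Levels of different genes were compared as normalized counts (reads divided by the DESeq2 size factor of the library) per kilobase of merged exons. In WT total mRNA Id1 stood highest at 1944 ± 567 per kb (SD, n = 8), followed by Dusp6 at 634 ± 188 and Dusp4 at 419 ± 181. Spry2 at 130 ± 30.8, Id2 at 126 ± 71.0, Dusp5 at 121 ± 72.0, Dusp1 at 85.5 ± 38.1 and Dusp2 at 57.4 ± 48.8 followed, and neighbours in this lower part of the order lay within their SDs. In R98S total mRNA the order changed: Id1 at 366 ± 354 per kb and Dusp6 at 318 ± 119 did not differ beyond their spread (SD, n = 9), and Id2 at 203 ± 82.2 and Dusp4 at 190 ± 66.0 came next.

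Id3 and Spry1 were at the floor. Id3 had 13 reads in all over the 17 total mRNA libraries and 6 over the 14 polysomal ones, at most 3 in a library. Spry1 had 0 reads in total mRNA and 1 read in polysomal RNA. The limit that a count of 0 allows, 3 reads, corresponds to 1.81 to 5.14 normalized counts depending on the library, and such limits cover counting error only. Both genes lay below the mean of 10 normalized counts required for a test, so 8 of the 10 members were tested and no fold change is given for these 2.

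R98S was compared with WT to ask which of these regulators differ with the ribosomal mutation. Id1, Dusp4 and Dusp6 were lower in R98S in both fractions, Spry2 had small negative log2 fold changes, Id2 lay higher in total mRNA, and the intervals of Dusp1, Dusp2 and Dusp5 in both fractions and of Id2 in polysomal RNA include 0. In total mRNA 3 of the 8 tested members were called, all lower (limma, adjusted p under 0.1), where 15.8% of the genes tested were called lower and 30.3% in either direction. In polysomal RNA the same 3 members were called lower, where 5.87% of the genes tested were called lower and 13.5% in either direction. Because the list was chosen with this contrast known, nothing is read from these counts. With the replicate number as a block 4 members were called lower and 1 higher in each fraction. The block added Spry2 among the lower and Id2 as the higher one, where 19.9% of genes were called lower and 18.5% higher in total mRNA, and 15.7% lower and 15.2% higher in polysomal RNA.

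Id1 (ENSMUSG00000042745, GRCm38 chr2:152736251-152737410, plus strand) had the largest difference of the 8 tested members. Its normalized counts in R98S total mRNA were 77.2 at the lowest, 202 at the median and 1149 at the highest of 9 libraries. In WT they were 1286, 2220 and 3371 over 8 libraries, so the genotypes did not overlap. The share of all genes that separate library by library was not counted. Such separation is therefore a description only, here and for the members and the ratio below. The log2 fold change was -2.99 ± 0.47 (SE), which corresponds to 7.93-fold higher levels in WT. The 9 R98S libraries were not alike: clone 11 held 155, 176 and 77.2 for numbers 1, 2 and 3, clone 13 held 252, 810 and 906, and clone 35 held 90.6, 1149 and 202. In 3 R98S cultures Id1 thus reached 810 or more, and in the 6 others it stayed at or below 252. Within number 2, where 2 of these 3 cultures lie, the log2 fold change was -1.68 and no member passed the test, whereas within number 1 it was -3.90.

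In polysomal RNA Id1 was 317, 499 and 2146 normalized counts (lowest, median, highest of 8) in R98S and 1328, 4588 and 8916 (of 6) in WT, with a log2 fold change of -2.44 ± 0.49. With the replicate number as a block the log2 fold change was -2.18 ± 0.21. The overlap came from a single R98S culture, clone 13 of number 3 at 2146, which exceeded WT clone 29 at 1717 in number 1 and 1328 in number 2. Within each of the 3 numbers the mean of R98S was below that of WT.

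Id2 (ENSMUSG00000020644, chr12:25093799-25097140, minus strand) had a log2 fold change above 0. In total mRNA it was 192, 547 and 816 normalized counts in R98S and 108, 290 and 546 in WT (lowest, median, highest), with a log2 fold change of 0.80 ± 0.35. There were 5 of 9 R98S libraries above every WT library and 3 of 8 WT libraries below every R98S library. Clones of 1 genotype differed as much as the genotypes did: WT clone 36 held 534 and 546, close to the means of 566 and 612 of R98S clones 11 and 35, while WT clone 29 held 108, 112 and 290. Without WT clone 29 the log2 fold change was 0.33. With the block it was 0.85 ± 0.33 in total mRNA and 1.08 ± 0.38 in polysomal RNA. With the block Id2 was among the called genes in both fractions and without it in neither, and nothing is read from that, as above.

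The ratio of Id1 to Id2 per kilobase therefore separated the genotypes in total mRNA. It ran from 0.284 to 5.19 with a median of 1.05 in R98S and from 9.73 to 52.0 with a median of 14.5 in WT. In 4 of the 9 R98S libraries Id2 was above Id1, and in none of the 8 WT libraries. In polysomal RNA the ratio was 1.33 to 4.596 in R98S and 9.65 to 100.6 in WT.

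**Figure D1:**
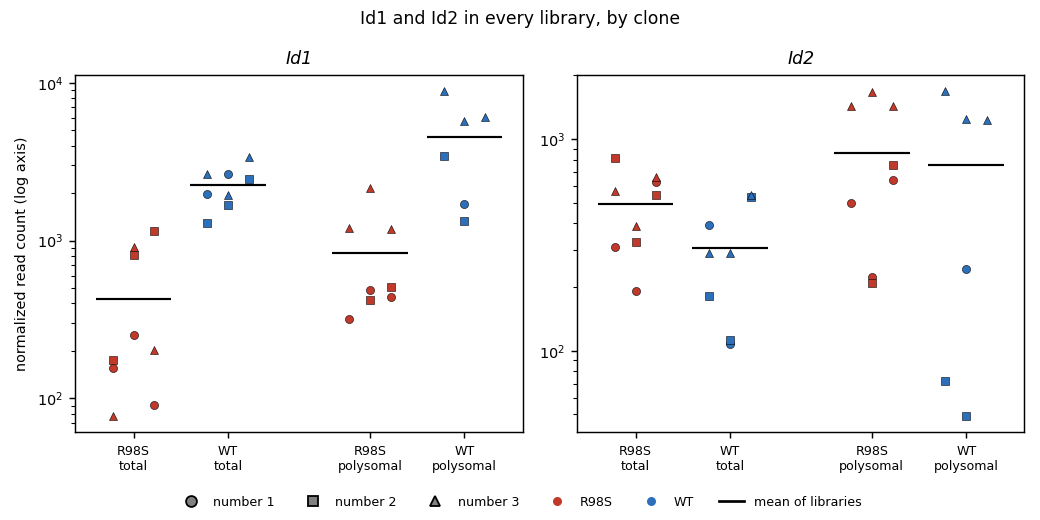
Normalized read counts (log axis) of Id1 and Id2 in each library, with R98S in red and WT in blue; symbols give the replicate number, columns of points within a group are clones in ascending order, and black lines are means. Id1 libraries of the genotypes do not overlap in total mRNA, and Id1 and Id2 of number 3 (triangles) stand at the top of the polysomal groups.

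Dusp6 (ENSMUSG00000019960, chr10:99263231-99267489, plus strand), a cytoplasmic phosphatase selective for ERK, was 602, 970 and 1874 normalized counts in R98S and 1226, 2029 and 2647 in WT total mRNA (lowest, median, highest). All but 1 of the 9 R98S libraries lay below every WT library, and the exception was clone 35 of number 2 at 1874, one of the cultures with high Id1. The log2 fold change was -1.01 ± 0.21, and in polysomal RNA it was -0.94 ± 0.21. There the values were 478, 843 and 1094 in R98S and 1080, 1452 and 2104 in WT, and 7 of the 8 R98S libraries lay below every WT library.

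Dusp4 (ENSMUSG00000031530, chr8:34807297-34819894, plus strand), a nuclear phosphatase for ERK and JNK, was 318, 551 and 770 normalized counts in R98S and 454, 1123 and 1826 in WT total mRNA. Of 8 WT libraries 5 lay above every R98S library, and the lowest WT value, 454, was that of clone 28 with number 2. The log2 fold change was -1.08 ± 0.27 in total mRNA, where the call was lost without number 3, and -0.89 ± 0.30 in polysomal RNA. In polysomal RNA the lowest WT library was again clone 28 with number 2, at 324 against 954 to 1703 in the 5 others, and R98S libraries spanned 299.5 to 672. The polysomal calls of Dusp4 and Dusp6 were both lost when number 1 or WT clone 29 was left out and within number 2, where the log2 fold change of Dusp4 was -0.16. That of Dusp4 was also lost in a fit to the means of the 3 clones a genotype, with no filter on low values, with quantile normalization, without number 3, without any 1 of the R98S clones or WT clone 36, and without R98S clone 35 of number 1, clones 13 and 35 of number 2 or clone 13 of number 3. It was kept in 12 of 26 alternatives, against 23 for Dusp6.

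Spry2 (ENSMUSG00000022114, chr14:105891947-105896819, minus strand) had a small difference. It was 164, 208 and 279 normalized counts in R98S and 218, 255 and 419 in WT total mRNA, and 109, 142 and 168 in R98S and 140, 187 and 213 in WT polysomal RNA. The log2 fold changes were -0.32 ± 0.14 and -0.36 ± 0.16, and the block gave -0.32 ± 0.13 and -0.37 ± 0.15, with which it was among the called genes, a count from which nothing is read, as above. Of 6 polysomal WT libraries 5 lay above every R98S library, and the exception was the only polysomal library of WT clone 36, at 140.

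Clone means restate the contrast by which the members were chosen and are a description. The means of the 3 R98S clones all lay below those of the 3 WT clones for Id1, Dusp4 and Dusp6 in both fractions, an order found in 21.0% of the genes tested in total mRNA and 14.8% in polysomal RNA. For Spry2 in total mRNA R98S clones 13 and 35, at 238 ± 35.3 and 231 ± 54.0 normalized counts (SD, n = 3), lay above WT clone 29 at 226 ± 6.88.

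**Figure D2:**
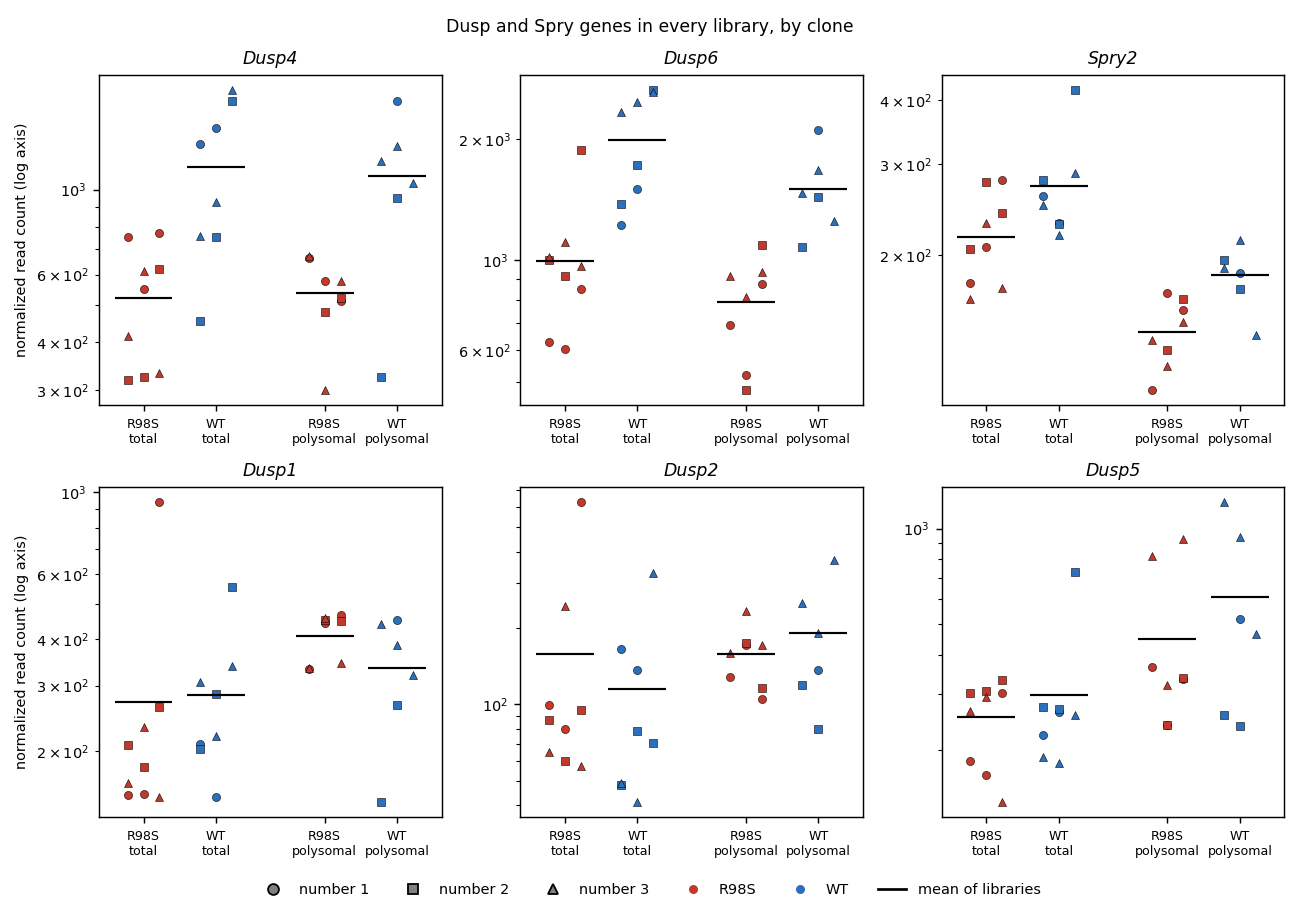
Normalized read counts (log axes that differ between panels) of the Dusp genes and Spry2 in each library, drawn as in the plot of Id1 and Id2. Means of Dusp4, Dusp6 and Spry2 (upper row) lie lower in R98S, with overlap of single libraries. Dusp1, Dusp2 and Dusp5 (lower row) also overlap between the genotypes and have single libraries far above the rest.

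The 3 remaining phosphatase genes had wide spreads and intervals on both sides of 0. Dusp1 (ENSMUSG00000024190, chr17:26505590-26562128, minus strand), which acts on p38 and JNK as well as ERK, had a log2 fold change of -0.25 with a 95% interval from -0.92 to 0.41 in total mRNA and 0.37 (-0.12 to 0.86) in polysomal RNA. For Dusp2 (ENSMUSG00000027368, chr2:127336159-127338376, plus strand), a nuclear phosphatase of activated blood cells, the values were 0.29 (-0.70 to 1.28) and -0.14 (-0.78 to 0.50). For Dusp5 (ENSMUSG00000034765, chr19:53529109-53542431, plus strand), which is nuclear and selective for ERK, they were -0.15 (-0.66 to 0.36) and -0.37 (-1.24 to 0.51).

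Single cultures stood far above the rest for these genes. In R98S clone 35 of number 1 total mRNA held 943 normalized counts of Dusp1, against 150 to 262 in the other 8 R98S libraries, and 630 of Dusp2, against 57.2 to 245. Among 6 early response genes the same library was highest of 17 for Fos (1682), Fosb (150), Jun (1139) and Ier2 (6134), ranked 3 for Junb and 7 for Egr1, which was low there (5.96). Its polysomal partner did not follow: Dusp1 was 465 there, just above the 443 to 456 of clone 13, and Dusp2 was 105, the lowest of 8. WT clone 36 of number 2 held the highest total mRNA values of Dusp5 at 730, Dusp6 at 2647 and Spry2 at 419 among 17 libraries, and the second highest of Dusp1 at 555. In the same 6 early response genes it ranked 1 for Junb, 2 for Fos and Ier2, 5 for Fosb and Egr1 and 6 for Jun. It has no polysomal partner. Without that library Id2 joined Id1, Dusp4 and Dusp6 among the called members in total mRNA, and without R98S clone 35 of number 1 Spry2 did so. Without all libraries of number 1 Id2 and Dusp1 were added, Dusp1 with a log2 fold change of -0.61. The alternatives that leave out single cultures were chosen after the values were seen.

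Polysomal over total mRNA of the same culture, on the log2 scale, was taken as translational efficiency (TE), which asks whether a gene's transcripts are more or less loaded with ribosomes. The 2 tables were normalized separately, so TE is relative to the average gene. The choice of members used this ratio too, so its values are a description. The count of members called by limma was 0 of 8, where 0.0376% of the genes tested were called. At an unadjusted p under 0.05 it was 0 too, where 633 of 10627 genes passed. Nothing is read from these counts. Log2 differences in TE ran from -0.57 ± 0.60 for Dusp2 to 0.49 ± 0.38 for Dusp1. With the replicate number as a block they ran from -0.32 ± 0.35 for Dusp5 to 0.53 ± 0.51 for Id1. No member was called with the block, where 41 of 10627 genes were called higher and 9 lower, and nothing is read from that either. Without the block the narrowest intervals were those of Spry2, from -0.60 to 0.29, and Dusp6, from -0.41 to 0.61. For Id1 the interval ran from -1.0 to 1.93, the widest of the 8 tested members.

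**Figure D3:**
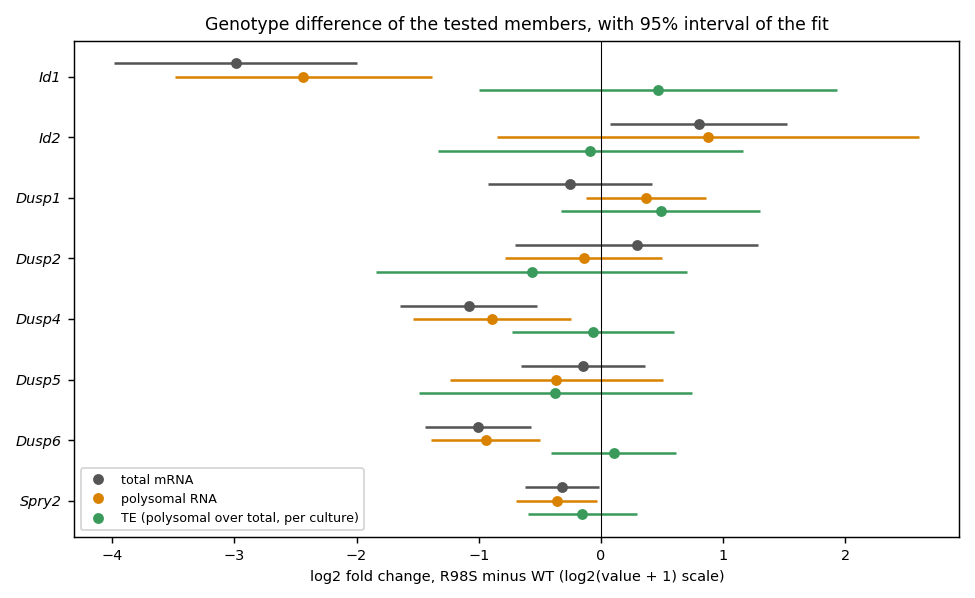
Log2 fold change of R98S over WT for the 8 tested members in total mRNA, polysomal RNA and TE. Points are estimates of the fit without the replicate block and bars its 95% intervals. Id1, Dusp4 and Dusp6 lie left of 0 in both fractions, and each TE interval includes 0.

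The ratios of single cultures spread most for Id1. Its log2 TE was 1.03, 0.96 and 2.27 in the 3 R98S cultures of number 1, -0.95 and -1.17 in the 2 of number 2, and 3.94, 1.24 and 2.55 in the 3 of number 3. In WT it was -0.63 in number 1, 1.42 and -0.35 in number 2, and 1.76, 1.55 and 0.85 in number 3. The difference between the genotypes was 2.05 within number 1, with a single WT culture, -1.60 within number 2 and 1.19 within number 3. Within number 1, where WT is a single culture and is assumed to vary like R98S, Id1 was among 695 genes called in TE, against 4 genes with all numbers. In number 2 the R98S cultures of clones 13 and 35 had high Id1 in total mRNA, 810 and 1149, but held 419 and 508.5 in polysomal RNA, against 489 and 440.3 of the same clones in number 1.

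The replicate number was tested next. The rule for the members does not name it, but the list was chosen with earlier results of these libraries known. The labels do not say what a number shares. Polysomal Id1, Id2, Dusp2 and Dusp5 differed between the numbers (4 of 8 members, limma F test with genotype in the fit), where 64.9% of the genes tested did. Adjusted p was 7.32e-06 for Id1, 2.78e-05 for Id2, 0.00192 for Dusp5 and 0.0123 for Dusp2. All 4 were highest in number 3. In total mRNA Dusp5 (adjusted p = 0.0627) and Dusp6 (0.0176) passed, 2 of 8 members where 43.5% of genes did, and Id1 (0.488) and Id2 (0.328) did not. The call of Dusp5 in total mRNA was lost with no filter on low values, without WT clone 28, 29 or 36, without the R98S cultures of clones 13 and 35 in number 2, and without the single library of WT clone 36 in number 2, where Dusp5 was highest of 17.

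Polysomal Id1 of number 3 held 1199, 2146 and 1191 normalized counts in R98S and 8916, 5735 and 6098 in WT. In numbers 1 and 2 together R98S held 317 to 508.5 in 5 libraries and WT 1328 to 3442 in 3 libraries. Number 3 was thus above the other numbers within each genotype. By means on the log2 scale, with equal weight for both genotypes, it was 3.74-fold number 1 and 3.16-fold number 2. The interaction of genotype and number had an adjusted p of 0.988.

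Polysomal Id2 had the widest range of the 8 tested members in that fraction, 34.5-fold between the lowest and the highest library. The 6 libraries of number 3 held 1228 to 1693 normalized counts in both genotypes, without a gap between them. In number 2 the WT libraries held 71.9 and 49.0 against 208 and 758 in R98S, and in number 1 the WT library held 244 against 224 to 642. The mean of number 3 was 9.30-fold that of number 2 on the log2 scale. Its interaction of genotype and number had an adjusted p of 0.754. No member was called in that test (limma), where 0% of genes were called in total mRNA and 0.0280% in polysomal RNA. Members with an unadjusted p under 0.05 numbered 0 in total mRNA and 2, Id2 and Dusp1, in polysomal RNA. Of all genes tested 480 of 11133 and 595 of 10707 had such a p. Without number 2 the polysomal log2 fold change of Id2 was -0.17, against 0.88 ± 0.81 with all numbers.

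Polysomal Dusp5 of number 3 held 819, 321 and 928 normalized counts in R98S and 1217, 942.5 and 464 in WT, against 238 to 520 in the other numbers. R98S clone 13 and WT clone 36 thus lay within the range of the other numbers. By means on the log2 scale Dusp5 of number 3 was 2.68-fold that of number 2 in polysomal RNA but 0.621-fold in total mRNA. The fractions thus moved in opposite directions. In TE, a test added after the data were seen, Id1 (adjusted p = 0.00976), Id2 (9.17e-05), Dusp5 (0.00225) and Dusp6 (0.0258) differed between the numbers, where 71.0% of genes did. TE of Id1, Id2 and Dusp5 was highest in number 3 and lowest in number 2, by log2 differences of 2.25, 2.40 and 1.89. TE of Dusp6 was highest in number 1, with number 2 lower by a log2 difference of -0.82, and Spry2, Dusp4, Dusp1 and Dusp2 did not pass (adjusted p = 0.79, 0.819, 0.722 and 0.126).

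The size factors of each table hold the median gene near 0, so the values by number are relative to it. The median log2 difference of number 3 over number 2 was -0.02 in polysomal RNA over 10707 genes and -0.03 in TE over 10627 genes. The summed normalized counts of the polysomal libraries were 16405000 to 18467700 in number 3 and 12382100 to 13546600 in numbers 1 and 2, while total mRNA sums ranged from 15211400 to 16325200. Their part in these results was not tested.

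**Figure D4:**
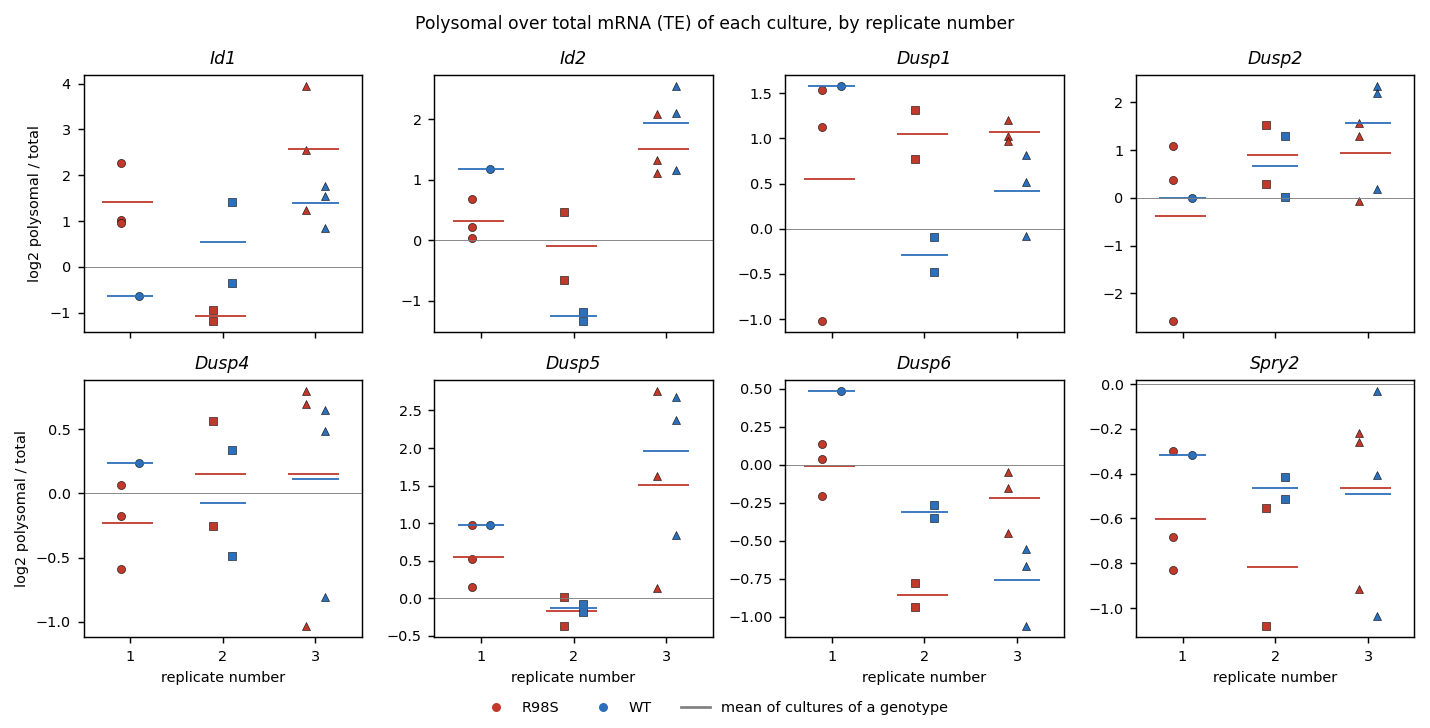
Log2 of polysomal over total mRNA of each of the 14 cultures by replicate number, with R98S in red, WT in blue and lines at the mean of a genotype; vertical scales differ between panels. Id1, Id2 and Dusp5 reach their highest ratios in number 3, and Spry2 stays within -1.08 to -0.03 throughout.

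Clones of a genotype were compared in a fit with a term per clone and the number as covariate. No member was called by limma in any of the 4 tests, where 4.08% of genes were called among R98S clones and 0.153% among WT clones in total mRNA, and 2.90% and 2.04% in polysomal RNA. At an unadjusted p under 0.05 there were 2 members among R98S clones and 3 among WT clones in total mRNA, and 3 and 2 in polysomal RNA. Over all genes tested these numbered 2099 and 752 of 11133 in total mRNA, and 1575 and 1887 of 10707 in polysomal RNA. Dusp4 among WT clones in total mRNA had an adjusted p of 0.213 in limma, with clone means of 843 ± 439 for clone 28, 1042 ± 360 for clone 29 and 1765 ± 86.3 for clone 36 (SD, n = 3, 3 and 2). Adjusted p was 0.321 for Id2 among WT clones and 0.19 for Id1 among R98S clones, both in total mRNA. A clone had 2 or 3 libraries, except WT clone 36 with 1 in polysomal RNA, and an adjusted p above the threshold does not show that clones are alike.

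Regulatory sequence of the members was read from RefSeq (GRCm38.p6). The promoters of 8 members were in the table used, all except those of Id1 and Dusp4, and the 250 bases before the start were searched on both strands. Dusp1 is shown because a single culture stood far apart for it, Dusp5 because it differed between the numbers, and Dusp6 because it was lower in R98S. Capitals mark a cyclic AMP response element (TGACGTCA), GGCGCC, an element known from BMP-responsive genes, an ETS core (GGAAGT, here on the reverse strand) and CArG boxes, the sites of serum response factor.
Dusp1, chr17:26508473-26508722, minus strand: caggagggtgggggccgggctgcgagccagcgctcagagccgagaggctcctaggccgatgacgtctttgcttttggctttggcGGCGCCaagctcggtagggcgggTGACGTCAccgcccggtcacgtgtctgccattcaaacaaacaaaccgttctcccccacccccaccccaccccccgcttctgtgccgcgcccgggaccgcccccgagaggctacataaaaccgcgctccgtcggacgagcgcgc
Dusp5, chr19:53528895-53529144, plus strand: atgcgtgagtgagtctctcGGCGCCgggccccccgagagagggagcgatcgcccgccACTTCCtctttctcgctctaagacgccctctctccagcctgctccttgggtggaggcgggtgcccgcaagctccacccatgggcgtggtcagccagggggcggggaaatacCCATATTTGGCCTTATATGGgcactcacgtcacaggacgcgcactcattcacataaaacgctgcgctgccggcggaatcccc
Dusp6, chr10:99262981-99263230, plus strand: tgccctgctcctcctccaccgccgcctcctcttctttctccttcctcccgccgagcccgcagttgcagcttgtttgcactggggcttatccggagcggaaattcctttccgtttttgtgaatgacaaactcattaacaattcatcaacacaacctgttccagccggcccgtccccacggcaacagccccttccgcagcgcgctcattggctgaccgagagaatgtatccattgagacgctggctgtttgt
Dusp5 held 2 adjacent CArG boxes, at bases -82 to -73 and -72 to -63 from the start, which 1.01% of the 8243 promoters of genes tested in total mRNA held at all. The cyclic AMP element stood at -143 to -136 in Dusp1, and 2.98% of those promoters held one. GGCGCC was found in the promoters of Id2, Dusp1, Dusp2 and Dusp5, 4 of 8 against 16.7% of all. ETS cores were in Dusp5 alone of the 8, against 24.9%. AP-1 (TGANTCA) and STAT (TTCNNNGAA) letters were in none of the 8, against 4.15% and 6.15%. The E-box CACGTG was in Dusp1 and Dusp2, against 8.48%, the TATA letters TATAAA in none, against 5.80%, and the GC box GGGCGG in 6 of 8, against 59.7%. The promoters of Dusp6 and Spry2 held none of the motifs searched. A match is a description of letters and not of a bound site.

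AU-rich elements, which mark short-lived messages, were counted in the 3′ UTR of 1 principal transcript a gene. The pentamer ATTTA was in 66.4% of 10110 tested genes with a 3′ UTR, and in 8 of the 10 members, all but Id1 and Id3. The longer TATTTAT was in 27.6% of those genes and in Id2, Dusp1, Dusp2, Spry1 and Spry2. One site of each of the 3 genes with 2 or more sites and measurable levels is shown, with the element in capitals.
Id2: tgtgataccgtTATTTATgagagactttc
Dusp1: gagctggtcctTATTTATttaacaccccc
Spry2: agtgtaaagaaTATTTATttgaagtttta

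Other genes of the same routes were taken from 6 lists that hold no member. These lists were chosen with earlier results of these libraries known, and many of the named genes were picked by their adjusted p. The adjusted p-values given for them are thus a description and not an independent test. Counts of called genes in the lists stand against the 30.3% of all genes called in total mRNA and the 13.5% in polysomal RNA. No list was tested as a set. Counts with the replicate block stand against 18.5% called higher and 19.9% lower in total mRNA, and 15.2% and 15.7% in polysomal RNA. Of 25 further feedback genes of MAP kinase signalling 16 were tested, and 1 was called higher and 4 lower in R98S total mRNA, with a median log2 fold change of -0.19 against 0.00 over all genes tested. In polysomal RNA 2 were higher and 3 lower. Rgs2, a brake on G-protein signals, fell by 1.59 ± 0.27 on the log2 scale in total mRNA (limma adjusted p = 0.000441) and by 1.85 ± 0.25 in polysomal RNA (0.000134). The Ras inactivators Rasa1 and Rasa2 fell by 0.68 ± 0.16 (0.00652) and 0.68 ± 0.19 (0.0145) in total mRNA. Spry4, another Sprouty gene, rose in polysomal RNA by 1.15 ± 0.24 (0.00586), from 28.8 ± 11.1 to 63.1 ± 13.4 normalized counts (SD, n = 6 and 8), and its total mRNA change was -0.17 ± 0.44 (0.814). Spred1 and Spred2, Sprouty-related inhibitors of Ras, did not pass in either fraction, with adjusted p = 0.35 and 0.82 in total mRNA and 0.524 and 0.889 in polysomal RNA.

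The ERK cascade itself had 8 genes higher and 4 lower of 29 tested in total mRNA, and 5 higher and 1 lower in polysomal RNA (8 and 2 with the replicate block). ERK1 (Mapk3) did not pass in either fraction, at a log2 fold change of 0.06 ± 0.12 in total mRNA (adjusted p = 0.768). The adaptor Grb2 rose in both fractions, by 0.41 ± 0.13 (0.032) and 0.57 ± 0.18 (0.0521), and Hras rose in polysomal RNA by 0.79 ± 0.17 (0.00633). Rasgrp4, a Ras activator of blood cells, fell by 1.46 ± 0.31 in total mRNA (0.0025). The Ras-like GTPase gene Rras2 rose by 0.49 ± 0.12 in total mRNA (0.00683), and the adaptor gene Gab3 by 0.92 ± 0.24 in polysomal RNA (0.0228). Of 24 tested genes of the JNK and p38 cascades 5 were higher and 6 lower in total mRNA and 4 and 1 in polysomal RNA, where the replicate block gave 5 and 5. Gadd45g, a stress-induced activator of both cascades, fell by 1.37 ± 0.24 in total mRNA (0.000442), and Mapkapk3, a kinase below p38, rose by 0.67 ± 0.12 (0.000646). Mapk13, a p38 gene, rose by 0.56 ± 0.13 in total mRNA (0.00431), and Map2k4, a kinase above JNK, by 0.59 ± 0.17 in polysomal RNA (0.0424).

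Of transcription genes that respond to ERK, in total mRNA 2 of 28 were higher and 3 lower, and in polysomal RNA 7 of 27 were higher and 2 lower (8 and 5 with the block), with a median of 0.28 against -0.02 over all genes. Jun, an AP-1 subunit and JNK target, rose by 1.21 ± 0.41 in total mRNA (adjusted p = 0.0411), with 1139 in R98S clone 35 of number 1 as its highest value, and by 1.49 ± 0.22 in polysomal RNA (0.000379). Phlda1 rose by 2.02 ± 0.43 in polysomal RNA (0.00598). The ETS factor Etv5 fell by 0.83 ± 0.16 in polysomal RNA (0.00278), and the ETS factor Elk3 by 0.69 ± 0.19 in total mRNA (0.0123). Mcl1, which protects blood cells from apoptosis, fell by 0.39 ± 0.10 in total mRNA (0.00674).

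Id proteins bind E proteins, and of the wider list of bHLH factors and E proteins, which also holds factors of the Myc and Max network and of other networks, 3 of 20 were higher and 6 lower in total mRNA and 0 and 4 in polysomal RNA, where the block gave 3 and 6. The E protein gene Tcf4 fell by 0.60 ± 0.14 in total mRNA (adjusted p = 0.00548) and by 0.81 ± 0.20 in polysomal RNA (0.0158). The E protein genes Tcf3 and Tcf12 did not pass in either fraction without the block, with total mRNA changes of -0.07 ± 0.13 (0.749) and -0.05 ± 0.09 (0.745). With the block Tcf3 passed in polysomal RNA, at a log2 fold change of -0.41 (limma adjusted p = 0.0911). Lyl1, a blood bHLH factor that pairs with E proteins, fell by 1.10 ± 0.21 (0.000962) and 1.23 ± 0.17 (0.000155). Max, the partner of Myc, rose by 0.79 ± 0.15 in total mRNA (0.000859), and Mxd3, which competes for Max, fell by 1.19 ± 0.23 (0.00116). Id4 was listed at 0 in all 31 libraries.

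Of the BMP and TGF-beta list 1 of 22 tested genes was higher and 2 lower in total mRNA (3 and 4 with the block), and 4 of 21 higher and 3 lower in polysomal RNA. Smad3, which carries TGF-beta signals to the nucleus, fell by 2.56 ± 0.44 in total mRNA (adjusted p = 0.000484), from 436 ± 133 to 108 ± 132 normalized counts (SD, n = 8 and 9). Bambi, a decoy receptor of this pathway and itself a target of it, fell by 1.46 ± 0.26 (0.00054). The receptor gene Bmpr2 rose by 0.47 ± 0.16 in total mRNA (0.0454). No gene of the 6 lists was called in TE (limma). Of their 137 tested genes 9 had an unadjusted p under 0.05, where 633 of 10627 genes did over all genes tested. With the replicate block the number of called genes over the lists was 58 in polysomal RNA instead of 36. Genes called in all then numbered 3307 instead of 1449.

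**Figure D5:**
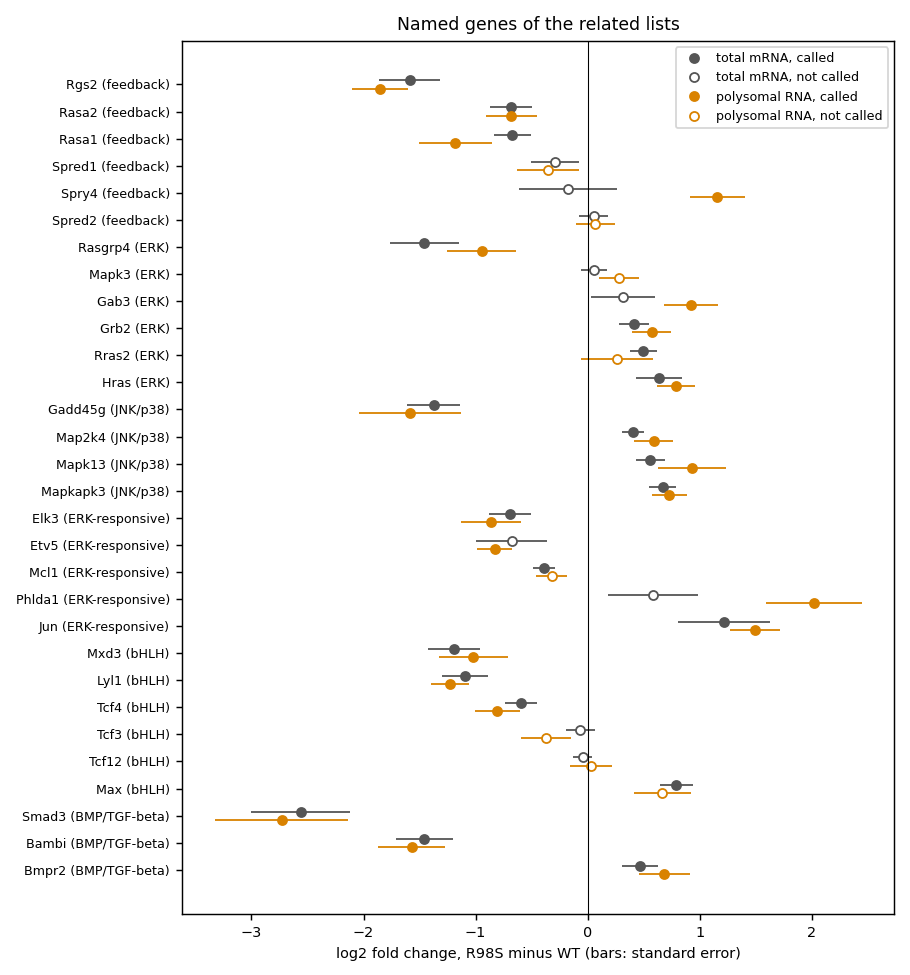
Log2 fold change of R98S over WT in total mRNA (grey) and polysomal RNA (orange) for genes named from the related lists, with standard errors; filled points passed the threshold of 0.1 on the adjusted p. Rgs2, Lyl1, Smad3 and Bambi lie left of 0 in both fractions, and Mapk3, Tcf3 and Tcf12 were not called in either in this fit without the replicate block.

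Genes whose pattern over the libraries was most like that of a member were sought in 8820 genes whose means reached 100 in each table, after the mean of each genotype and fraction was subtracted. Correlations are over 31 libraries, which share cultures and replicate numbers, and are given as a description. For Dusp1 the nearest were the early response genes Egr2 and Fos, both at r = 0.84. Within total mRNA r was 0.86 for Egr2 and 0.90 for Fos, and within polysomal RNA 0.77 and 0.57. R98S clone 35 of number 1 was the highest total mRNA library for both Dusp1 and Fos, and its part in these correlations was not tested. Dusp4 went with Lrp12 (0.82) and Mapk6 (0.82), Dusp2 with the STAT5 target Cish (0.78) and with Dnajb11 (0.77), and Dusp6 with Tmem65 (0.85) and Golph3 (0.81). Id1 went with Tubb6 (0.83) and Tspan3 (0.78), Id2 with Laptm4a (0.89) and Snx2 (0.89), and Dusp5 with Gtf2e2 (0.81) and Pdk3 (0.81). Spry2 had the weakest neighbours, Sil1 (0.69) and Lrrfip2 (0.65), and its correlation with Sil1 was 0.86 within total mRNA and 0.37 within polysomal RNA. For Id2 the correlation with Laptm4a was 0.69 within total mRNA and 0.94 within polysomal RNA, where the difference between the numbers was largest.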

How the data were processed

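Libraries were made by the authors from poly(A) RNA with a stranded kit. Per the labels and the study's methods, tRNA and rRNA reads were discarded with Bowtie2, the remainder was aligned to mm10 with TopHat2 2.0.11, and exonic reads were summed by gene, with HTSeq named in the processing notes. Each deposited value is a signal: the authors scaled the read counts of a library by its DESeq2 size factor, separately for the 2 tables. Of the values above 0, 100% were whole multiples of 1 step within 1e-06 of a step, so read counts were recovered.

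On log2(value + 1), for genes with a mean of 10 or more, limma 3.58.1 (R 4.3.3; lmFit, eBayes with a variance trend) was run over all genes, with Benjamini-Hochberg adjustment and a threshold of 0.1. All tests were two-sided. TE was the log2 polysomal minus the log2 total mRNA value of a culture. The sources used here do not say how independent the numbers of a clone are, and p-values measure the spread between these libraries. Libraries of a genotype were also compared in pairs by a chi-square of recovered reads per gene. The closest pairs were polysomal: R98S clone 13 of numbers 1 and 2 (4.557) and R98S clones 11 and 35 of number 3 (10.08). The closest pair in total mRNA stood at 21.89. Whether the libraries of these polysomal pairs are independent was not tested, and the fits treat them as such. Same-numbered R98S and WT libraries deviated together (r from 0.481 to 0.867 over 3 numbers in total mRNA, polysomal RNA and TE), so the numbers were treated as pairs in a blocked fit. edgeR 4.0.16 and DESeq2 1.42.0 were run on the recovered reads as alternatives. Other pseudocounts, filters, scalings and leave-outs were tried too. The test of the number in TE was added after the data were seen. Members and lists were chosen with earlier results of these data known. The named genes are the members, Rpl10 and, from each list and comparison, up to 3 called genes with the smallest adjusted p, with Spry4, Spred1, Spred2, Id4, Tcf3, Tcf4, Tcf12, Mapk3 and 2 neighbours of each member in any case. Some genes under this rule are not reported here.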

Additional observations from a re-analysis of the deposited data

Results flagged for a closer look

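Of 48 groups of 6 to 9 libraries of the tested members, 7 held a library whose gap to its nearest neighbour was a large share of the group's range on the log2 scale (Dixon's criterion at 95%), and chance flags about 1 in 20 groups. In total mRNA these were Dusp1 in R98S clone 35 of number 1, with 943 normalized counts and a gap of 0.696 of the range, and WT clone 36 of number 2 for Dusp5 (730, gap 0.707) and Spry2 (419, gap 0.571). In polysomal RNA Dusp4 was lowest in R98S clone 13 of number 3 (299.5, gap 0.582) and in WT clone 28 of number 2 (324, gap 0.65). On the counts themselves the gaps of Dusp4 were 0.483 and 0.456, below the critical values of 0.526 and 0.625, and those of Dusp1, Dusp5 and Spry2 were 0.858, 0.833 and 0.649. In TE R98S clone 35 of number 1 was lowest for Dusp1 (log2 TE of -1.02, gap 0.701) and Dusp2 (-2.57, gap 0.606), the culture whose total mRNA values of both genes were the highest.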

How the results depend on the processing

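With the replicate block, 5 members instead of 3 were called in total mRNA and 5 in polysomal RNA. Genes called in all with it numbered 4277 and 3307. In polysomal RNA 58 genes of the related lists were called with the block. The block changed no other call of the members. Leaving out a number or a clone gave 2 to 5 called members for total mRNA, 1 to 3 for polysomal RNA and 0 for TE, while the genes called in all numbered 1338 to 3003, 608 to 2037 and 0 to 64. Polysomal RNA came to 1 without number 1 or without WT clone 29, and total mRNA reached 5 without number 1. For the test of the number, leaving out a clone gave 1 to 2 members in total mRNA and 4 to 5 in polysomal RNA. Genes called in all then numbered 2693 to 4455 and 6054 to 6882. The test gave 1 member in total mRNA without WT clone 28 or without WT clone 29. It also did so, chosen after the data were seen, without the R98S cultures of clones 13 and 35 in number 2. Genes called in all were 2693, 2846 and 4015 in these fits, against 4843 in the main fit. Within number 2 no member was called in total mRNA (0, of 241 genes called in all), and within number 1 Id1 was the 1 member called in TE (of 695), where WT is a single culture assumed to vary like R98S, and nothing is read from it. The causes were not tested. edgeR and DESeq2 on recovered reads called 3 and 3 members in total mRNA and 3 and 4 in polysomal RNA. Genes they called in all numbered 3321 and 3555 in total mRNA and 1450 and 1911 in polysomal RNA.

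Id1, Id2, Dusp4, Dusp6 and Spry2 kept the sign of their total mRNA log2 fold change in all 27 alternatives, and Id1, Dusp4, Dusp6 and Spry2 in all 26 for polysomal RNA. Over the alternatives the median log2 fold change of all genes ran from -0.02 to 0.05 in total mRNA, -0.04 to 0.08 in polysomal RNA and -0.03 to 0.06 in TE. The lowest library of the tested members held 28 reads, for Dusp2, and the part of depth was not tested.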
